A study of Mus musculus with 6 samples.

Results

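Plek2 encodes pleckstrin-2, a protein with pleckstrin homology domains that binds membrane phosphoinositides and the actin cytoskeleton. It is best known in red cell precursors, where it acts downstream of erythropoietin and JAK2-STAT5 signalling and takes part in erythroblast survival and enucleation. Erythroblasts mature from progenitors that carry the stem cell factor receptor Kit, through stages driven by the transcription factor Klf1, to cells rich in the anion exchanger Slc4a1 (band 3) and haemoglobin. When red cells are lost, the adult mouse spleen becomes a site of stress erythropoiesis. Plek2 (ENSMUSG00000021118) was chosen by name with measured values of these data in view, and the features that went into this choice are given as descriptions: the Slc4a1 count of the cell, the presence of Kit or Klf1, the position over the nucleus and the place in the section. It was 1 of 477 genes on the smaller Xenium panel, where it had 8 probe sets, and this panel was used for 4 of the 6 sections of the series. The larger panel of 5050 genes, used for an E13.5 fetal liver and the bone marrow of an 89-week-old mouse, did not list it, so those 2 sections were not analysed here.

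The 4 sections came from wild-type mice: fetal liver at embryonic day 14.5 (E14.5), bone marrow at postnatal day 8 (P8), spleen of an untreated adult, and spleen of a mouse given phenylhydrazine (PHZ), a haemolytic agent, at 40 mg/kg with 2 injections a day for 2 days. Each was a 5 µm section of formalin-fixed, paraffin-embedded tissue. The 2 younger tissues shared a slide and the 2 spleens shared another, and the labels mention no vehicle injection for the untreated mouse, whereas the study's methods mention one for control mice. Every condition was 1 section, so no test between conditions was possible, and animal, slide and condition cannot be told apart where they differ. Intervals are exact 95% Poisson or binomial intervals unless stated and cover counting error only, not the spread between animals. Cell outlines were those of the deposited segmentation, in which a 5 µm slice of a cell can also take in transcripts of its neighbours, and no doublets were removed.

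The sections held 52594 to 117329 cells and 6446659 to 20952143 gene transcripts, with a median of 84 to 167 transcripts per cell. Any pair of sections shared between 1 and 6 cell names. Slc4a1-rich cells, taken as those with at least 10 Slc4a1 transcripts, made up 54.1% of cells in the fetal liver, 24.1% in the P8 marrow, 0.786% in the untreated spleen and 21.3% in the PHZ spleen.

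Plek2 was abundant in the fetal liver and the PHZ spleen and close to the detection floor in the untreated spleen. It gave 97509 transcripts in E14.5 fetal liver, 6680 in P8 bone marrow, 835 in untreated spleen and 69533 in PHZ spleen. Scaled to counts per 1000000 gene transcripts of the section (CPM), the levels were 4654, 1036, 80.7 and 6083 in the same order. Per cell, the order of the first and the last was turned around, with 0.831 transcripts in fetal liver, 0.735 in PHZ spleen, 0.127 in P8 marrow and 0.00771 in untreated spleen. At least 1 Plek2 transcript was found in 47.4% of fetal liver cells, 35.4% of PHZ spleen cells, 10.3% of P8 marrow cells and 0.683% of untreated spleen cells. The PHZ spleen and the fetal liver therefore had no fixed order over all cells, whereas both lay above the P8 marrow and the untreated spleen on each of these scales.

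The untreated spleen was the closest to background. Over that whole section, the 20 negative control probes gave a median of 27 and at most 77 transcripts each, against 835 for Plek2. Of its Plek2 transcripts of sufficient quality, 87.5% lay in a segmented cell, against 99.4% for all genes, and 72.4% of its Plek2 reads passed the quality score of 20, against 90.5% for all genes. In the other 3 sections Plek2 was close to all genes in the share that passed (70.4% to 80.9%), and 97.2% to 98.9% of it lay in cells. T cells, defined by at least 10 transcripts of Cd3d, Cd3e, Cd4 and Cd8a, were taken as a comparison. Whether they express Plek2 themselves was not tested, so they are not a proven Plek2-free reference. They carried it in 0.466% of 7935 cells in the untreated spleen (0.329% to 0.642%, median depth 103 transcripts). In the PHZ spleen the share was 5.71% of 595 T cells (3.99% to 7.89%, median depth 109). In the P8 section, 0.522% of skeletal muscle cells and 1.21% of cartilage cells had Plek2. The fetal liver offered no such reference, since its hepatocyte-marked cells held 9.46 Slc4a1 transcripts each and 44.6% of them had Plek2.

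Plek2 was higher in cells with more Slc4a1 in each section, a pattern that belongs to how the gene was chosen. In fetal liver it was 0.121 transcripts per cell without Slc4a1, 0.295 at 1-4 Slc4a1 transcripts, 0.569 at 5-9 and 1.17 at 10 or more. In P8 marrow the same classes held 0.00935, 0.0543, 0.158 and 0.336. The lowest and the highest levels of the top class were both in spleens. In untreated spleen the classes held 0.00470, 0.00783, 0.0609 and 0.278. In PHZ spleen they held 0.0503, 0.393, 1.09 and 1.96. Without Slc4a1, the share of cells with Plek2 was 0.447% in untreated spleen, 4.21% in PHZ spleen and 0.901% in P8 marrow, at median depths of 81, 71 and 84 transcripts. As whole classes, these shares were within the intervals of the T cells, or between muscle and cartilage, and are not read as expression. The T cells of the PHZ spleen were deeper than this class and held 0.699 Slc4a1 transcripts each, so they are no Slc4a1-free reference, and the class was not uniform, since its cells with Klf1 had a higher share. In the top class the share was 61.6%, 25.98%, 20.6% and 78.2% for fetal liver, P8 marrow, untreated spleen and PHZ spleen.

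**Figure D1:**
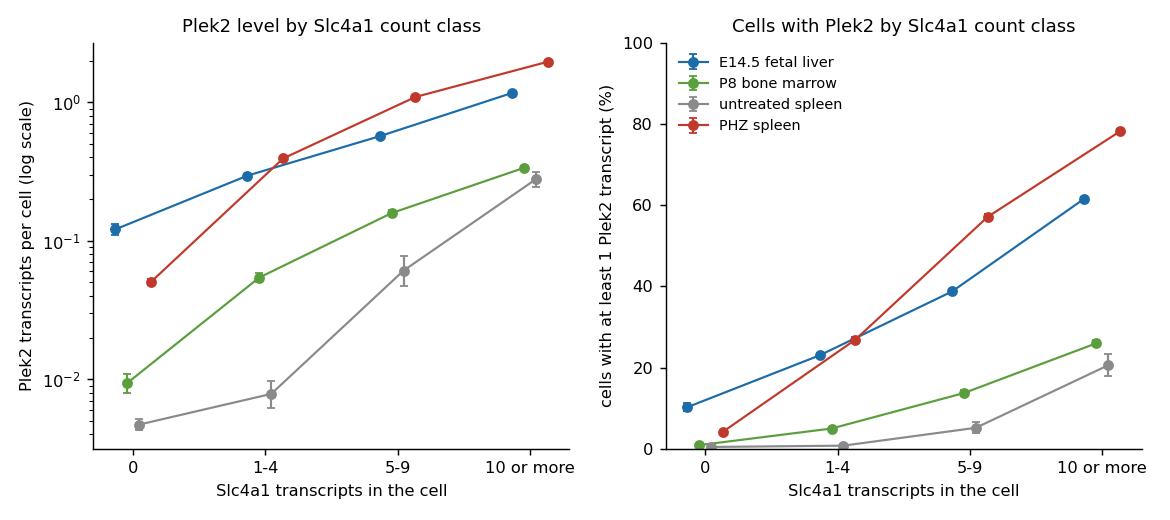
Plek2 by the number of Slc4a1 transcripts in the cell in the 4 sections (1 section per condition), as transcripts per cell on a log axis (left) and as the percent of cells with at least 1 Plek2 transcript (right); bars are 95% counting intervals. Each section climbs from the class without Slc4a1 to the class with 10 or more, where the PHZ spleen is highest at 1.96 transcripts per cell and the untreated spleen lowest at 0.278.

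Across the range above 10 Slc4a1 transcripts, the CPM of Plek2 moved less than its transcripts per cell. In fetal liver it was 5597 CPM at 10-19 Slc4a1 transcripts, 6143 at 20-39 and 5915 at 40 or more. In PHZ spleen it was 10651, 9565 and 11373 CPM. In P8 marrow it was 2093, 2100 and 1619 CPM, the last over 44 cells. In untreated spleen it was 1218, 1348 and 1359 CPM, the last over 5 cells. The climb in transcripts per cell over these finer classes, from 1.01 to 2.46 in fetal liver and from 1.87 to 5.00 in PHZ spleen, went with the depth of the cells. Their median was 171 and 168 transcripts at 10-19 Slc4a1 transcripts and 402.5 and 414.5 at 40 or more, the last over 24 cells in PHZ spleen.

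Individual Slc4a1-rich cells differed widely. In the PHZ spleen, 21.8% of them had no Plek2, 26.02% had 1 transcript, 43.2% had 2 to 4 and 8.93% had 5 or more, with a maximum of 15. In the fetal liver, 38.4% had none and 2.28% had 5 or more. In P8 marrow 74.0% and in untreated spleen 79.4% had none, and 5 of 12691 and 2 of 851 cells reached 5 transcripts. The variance over the mean was 1.61 in PHZ spleen, 1.44 in fetal liver, 1.22 in P8 marrow and 1.53 in untreated spleen, where a Poisson count gives a value near 1, and differences in cell size and depth enter these figures.

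The comparison of the spleens asks how Plek2 differs between the resting organ and the organ in stress erythropoiesis. Over all cells, Plek2 was 75.4-fold higher in CPM in the PHZ spleen than in the untreated spleen (70.4 to 80.8). Of the untreated transcripts, 54.0% lay in cells without Slc4a1, and with the level of such cells subtracted in each spleen the ratio was 180, so the interval does not cover the background. This was the highest ratio of the 343 genes with at least 1000 transcripts over both sections, a minimum that Plek2, with 835 in the untreated spleen, passed through the PHZ spleen, so its rank is a description. The next was Rhd, a protein of the red cell Rh complex, at 24.0-fold, and the median of all 343 genes was a log2 ratio of -0.56. As background, 17.5% of the genes were at least 2-fold higher in the PHZ spleen and 35.6% at least 2-fold lower.

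The 2 spleens differed both in their make-up by Slc4a1 class and in the level inside the classes. Cells with 10 or more Slc4a1 transcripts were 851 of 108338 in the untreated spleen and 20122 of 94582 in the PHZ spleen. With the class shares of the untreated spleen and the Plek2 levels of the PHZ spleen, the section would hold 0.109 Plek2 transcripts per cell. With the class shares of the PHZ spleen and the levels of the untreated spleen it would hold 0.0740. Both lay between the measured 0.00771 and 0.735. The share of Slc4a1-rich cells and the Plek2 content of each were thus both higher in the PHZ spleen.

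Among Slc4a1-rich cells alone, Plek2 was 237 transcripts in 851 cells of the untreated spleen and 39533 transcripts in 20122 cells of the PHZ spleen. This was 1262 against 10438 CPM, an 8.27-fold difference (7.28 to 9.44), and 7.05-fold per cell (6.21 to 8.05). The ratio was 21.9-fold in cells with 5-9 Slc4a1 transcripts and 57.5-fold at 1-4, where the untreated spleen had 66 and 81 Plek2 transcripts in all. At 1-4 the untreated share of 0.773% was little above that of its T cells. Cells without Slc4a1 also differed, 11.03-fold, where both spleens were at the share of their T cells. The Slc4a1 content of the cells compared was alike, with 16.5 Slc4a1 transcripts per cell in the untreated and 14.8 in the PHZ class. Most of the 851 untreated cells also held at least 3 transcripts of C1qa, C1qb and C1qc together.

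Among the 30 listed erythroid genes, Podxl was the only one with a larger difference than Plek2 between the Slc4a1-rich cells of the 2 spleens. The ratios of the listed genes kept in cells with at least 3 C1q transcripts, which were most of the untreated cells. The 2 spleens were not matched for the share of such cells. In the Slc4a1-rich class, 18.2% of 285 genes with at least 100 transcripts were at least 2-fold higher in the PHZ spleen and 31.9% at least 2-fold lower, and the median log2 ratio was -0.21, against 3.05 for Plek2. Of the 30 genes in the 6 erythroid lists, 6 were at least 2-fold higher and 0 lower, with a median of 0.44. These 6 were Podxl, Hk1, Gata1, Ndufa4l2, Ube2c and Stmn1. Over all cells, 23 of the 30 were at least 2-fold higher and 2 lower, with a median of 2.53.

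By role, the regulators and receptors had a median log2 ratio of 0.47 in the Slc4a1-rich class. Gata1, the master regulator of the lineage, was at 1.35, its partner Klf1 at 0.96, the erythropoietin receptor gene Epor at 0.48, and the transferrin receptor gene Tfrc at -0.14. The membrane and globin genes had a median of 0.06, with Rhd at 0.58, Slc4a1 at 0.07 and the beta-globin gene Hbb-bt at 0.06. The 4 heme and iron genes lay between 0.33 and 0.48. The cytoskeleton genes had a median of 0.09 and ranged from -0.61 for Rac2, a small GTPase, to 1.01 for Stmn1, which encodes the microtubule regulator stathmin. Diaph3, a formin gene, was at 0.54. The cell cycle genes Cenpf and Ube2c were at 0.62 and 1.15. The list of stage-linked genes had a median of 0.45, and its member Podxl, which encodes podocalyxin, exceeded Plek2: it was 54 transcripts in the untreated and 22866 in the PHZ class, a log2 ratio of 4.39.

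Plek2 ranked ninth from the highest in the Slc4a1-rich class, among the 285 genes. Of the 8 genes above it, Serpina3n, Cxcl1, Cxcl2, Saa3, Il10 and Ager rested on 1 to 9 transcripts in the untreated class. Podxl and the chemokine gene Ccl9, with 54 and 61 transcripts, were the others. The chemokine genes Ccl12 and Ccl7 had no transcript in the untreated class and 424 and 950 in the PHZ class, and were left out of the rank. Several of these encode secreted inflammatory proteins. C1q-positive cells left out, Plek2 in the Slc4a1-rich class was 1.91 transcripts per cell in PHZ spleen and 0.238 in untreated spleen. The untreated value rested on few cells, and no interval is given for it. In the wider set with at least 5 Slc4a1 transcripts, untreated cells that were not C1q-positive numbered 349, 20, 4 and 2 by rising distance to a C1q-positive cell. The Slc4a1-rich cells behind the value were only a part of these.

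**Figure D2:**
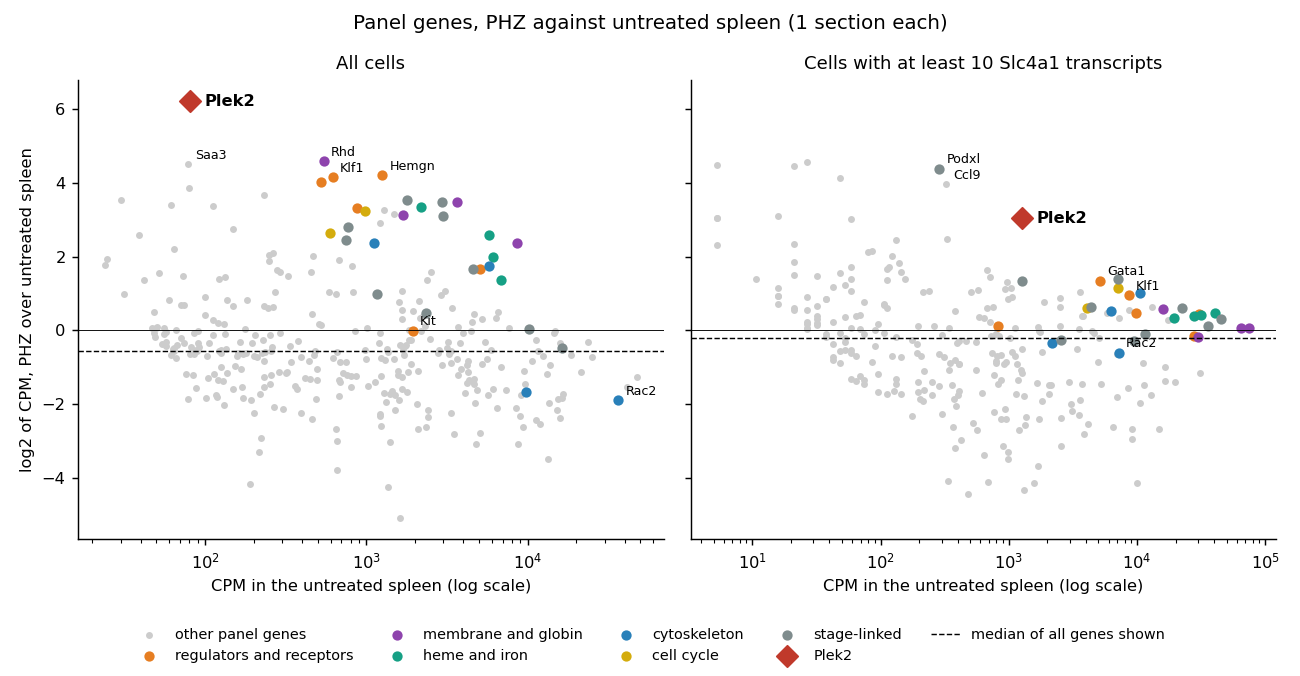
Ratio of CPM in the PHZ spleen over the untreated spleen (log2) against the CPM in the untreated spleen (log axis), for each gene with at least 1000 transcripts over all cells (left) or 100 in cells with at least 10 Slc4a1 transcripts (right); points are genes, 1 section per condition. Plek2 is the highest gene over all cells at 6.24 and lies at 3.05 in the Slc4a1-rich cells, where the listed erythroid genes have a median of 0.44.

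Against the fetal liver, Slc4a1-rich cells of the PHZ spleen held more Plek2. The level was 10438 CPM in PHZ spleen and 5788 CPM in fetal liver, a 1.80-fold difference (1.78 to 1.83), or 1.68-fold per cell. In this comparison 22.5% of 457 genes were at least 2-fold higher in the PHZ spleen and 30.4% at least 2-fold lower, and Plek2 ranked 110 from the highest. Of the 30 listed genes, 5 were at least 2-fold higher and 0 lower, with a median of 0.01. Those 5 were Ctse, Isg20, Aqp1, Cd36 and Cd44.

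The P8 marrow stood below the fetal liver. In Slc4a1-rich cells Plek2 was at 2090 CPM in P8 marrow, 0.361 of the fetal liver level (0.350 to 0.372). At least 2-fold higher in P8 marrow were 29.9% of 458 genes, at least 2-fold lower 18.3%, and Plek2 ranked 68 from the lowest. Of the listed genes, 4 were at least 2-fold higher and 2 lower, with a median of -0.28. The 2 lower ones were Podxl, at a log2 ratio of -3.65, and Ndufa4l2, at -1.59. Klf1 was at -0.82 and Gata1 at -0.79 in the same comparison.

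The order of Plek2 in Slc4a1-rich cells was PHZ spleen, fetal liver, P8 marrow and untreated spleen on each scale given here. Per 100 µm² of cell area it was 2.43, 1.93, 0.481 and 0.471 transcripts. Per 100 Klf1 transcripts it was 62.5, 31.6, 20.2 and 14.7. With every cell thinned to 50 transcripts it was 0.516, 0.288, 0.104 and 0.0588 per cell. The lower pair of this order was close on some scales. The per-cell ratio of P8 marrow to untreated spleen was 1.21 (1.06 to 1.38), and per area they were nearly equal. In CPM the ratio was larger, at 1.66 (1.45 to 1.90).

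The levels also varied within each section. Split into 4 quadrants, the PHZ spleen held 1.52 to 2.38 Plek2 transcripts per Slc4a1-rich cell and the fetal liver 1.11 to 1.27. These ranges did not overlap. The quadrants of the P8 marrow lay at 0.293 to 0.367, inside those of the untreated spleen at 0.206 to 0.500, where the smallest quadrant held 30 such cells. Quadrants of 1 section are not replicates of a condition.

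Plek2 went with Klf1 and far less with Kit. Klf1-positive cells had Plek2 in 53.5% of cases in fetal liver, against 21.7% of Klf1-negative cells. The pairs were 20.9% against 4.43% in P8 marrow, 6.23% against 0.492% in untreated spleen and 62.6% against 10.99% in PHZ spleen. Klf1 itself was higher in cells with more Slc4a1, so cells of like Slc4a1 content were compared. Within the class of 10 or more Slc4a1 transcripts, the ratio of the shares was 1.79 in fetal liver, 1.76 in P8 marrow, 2.75 in untreated spleen and 1.52 in PHZ spleen. After every cell was thinned to 50 transcripts these became 1.21, 1.27, 2.81 and 1.11, all still above 1. Of all Plek2-positive cells, 91.2% also held Klf1 in fetal liver, 72.6% in P8 marrow, 30.4% in untreated spleen and 83.6% in PHZ spleen, against 71.5%, 31.7%, 3.15% and 27.3% of the cells without Plek2.

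Kit, which marks the earlier progenitors, showed a much smaller gap. Plek2 was present in 43.3% of Kit-positive and 48.5% of Kit-negative cells in fetal liver, in 10.6% and 10.3% in P8 marrow, in 0.814% and 0.666% in untreated spleen, and in 40.3% and 34.7% in PHZ spleen. In the Slc4a1-rich class the ratio of the shares was 0.987 in fetal liver, 0.895 in P8 marrow, 1.12 in untreated spleen and 0.992 in PHZ spleen. Kit-positive cells were deeper than Kit-negative cells in each Slc4a1 class of each section, both with and without Klf1. Thinned to 50 transcripts, Kit-positive cells had Plek2 less often than Kit-negative cells in each section, with ratios of 0.620, 0.775, 0.832 and 0.707 over all cells. The interval of the untreated spleen, 0.530 to 1.31, held 1.

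Among cells without Slc4a1, Plek2 was found more often with Kit. The shares were 12.9% with and 9.04% without Kit in fetal liver, 2.06% and 0.831% in P8 marrow, and 0.519% and 0.437% in untreated spleen. Thinned to 50 transcripts, the ratio was 0.875 (0.556 to 1.38) in fetal liver, 1.30 (0.410 to 4.13) in P8 marrow and 1.00 (0.602 to 1.67) in untreated spleen, and each of these intervals held 1. In PHZ spleen, 10.1% of 3272 Kit-positive cells had Plek2 (9.10% to 11.2%), against 3.57% of Kit-negative cells, with median depths of 109 and 68 transcripts. Thinned to 50 transcripts the shares were 4.50% and 2.28%, a ratio of 1.98 (1.56 to 2.50, log-normal interval). Klf1-positive cells without Slc4a1 in this spleen had Plek2 in 21.9% of 3120 cases, above the 5.71% of its T cells. Cells with Kit and no Klf1 were at 2.46%, close to the 2.37% of cells with neither gene, while cells with both were at 28.6% and cells with Klf1 alone at 18.9%. With both genes the median depth was 139 transcripts and Plek2 was at 2520 CPM. With Klf1 alone the depth was 86 transcripts and the level 2452 CPM, so in CPM these groups were alike. Among cells without Slc4a1, the share in this spleen lay above that of its T cells where Klf1 was present, with or without Kit. These cells were picked by an erythroid transcript and the T cells were not. The gap therefore describes the co-detection of Plek2 with Klf1 and no more.

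The fetal liver had lower shares than the PHZ spleen where Klf1 was present and higher shares where it was absent. Its cells without Slc4a1 had Plek2 in 17.8% of those with Kit and Klf1 and in 14.4% with Klf1 alone. Median depths were 180 and 118 transcripts there, and the levels 1204 and 1245 CPM. They had it in 5.91% with Kit alone and in 6.12% with neither gene. In P8 marrow the shares were 4.49%, 2.01%, 1.54% and 0.784% in the same order, and in untreated spleen 1.99%, 0.624%, 0.448% and 0.435%. These groups held only 9, 15, 13 and 130 Plek2 transcripts in P8 marrow and 10, 7, 48 and 386 in untreated spleen. The intervals for both genes and for Klf1 alone overlapped in each of these sections.

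**Figure D3:**
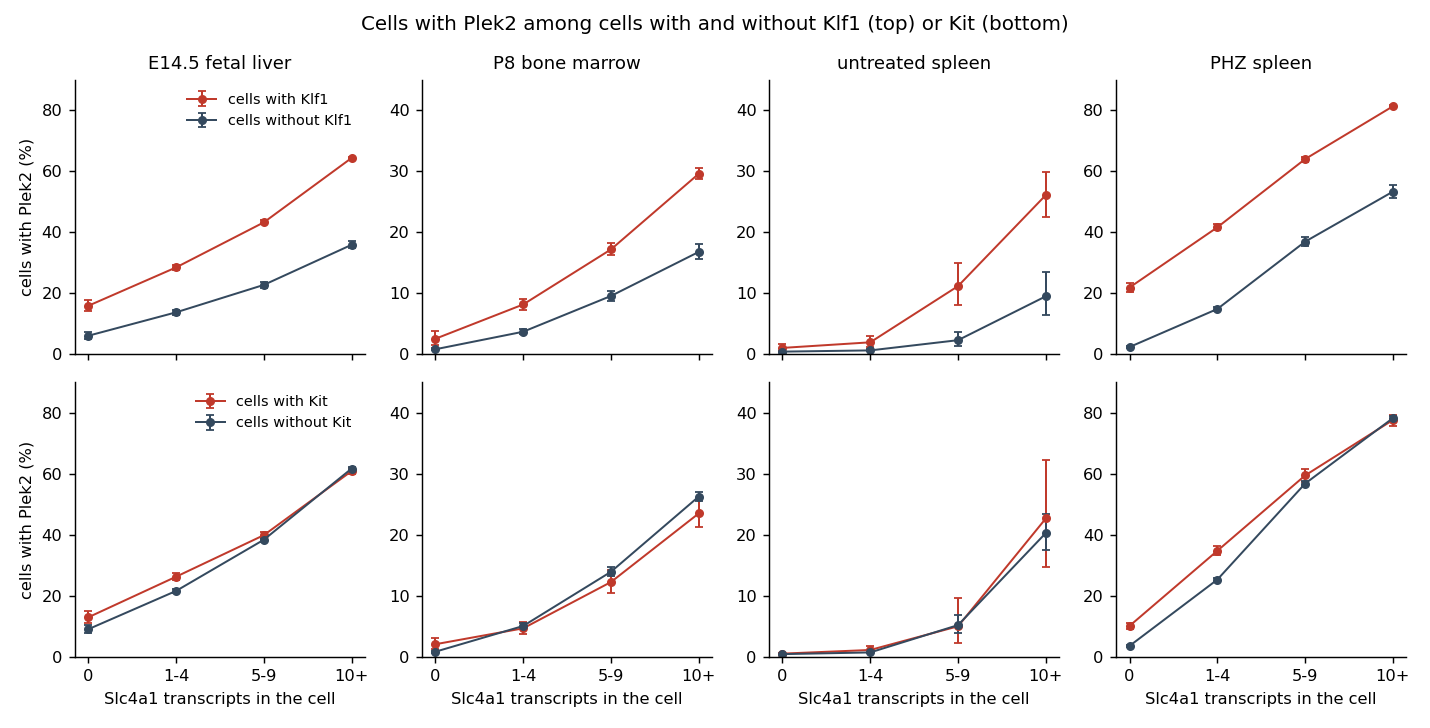
Percent of cells with at least 1 Plek2 transcript, by the number of Slc4a1 transcripts in the cell, for cells with and without Klf1 (top) and with and without Kit (bottom) in each section; bars are 95% binomial intervals, and the vertical scale of P8 marrow and untreated spleen ends lower. Klf1-positive cells lie above Klf1-negative cells in each class, while in the top class the Kit lines lie close together, at 77.6% and 78.2% in PHZ spleen and 23.5% and 26.3% in P8 marrow.

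Plek2 transcripts lay over the nucleus more often than the average transcript. The share over a nucleus was 63.5% in fetal liver (63.2% to 63.8%), 69.1% in P8 marrow (68.0% to 70.2%), 68.1% in untreated spleen (64.9% to 71.3%) and 61.0% in PHZ spleen (60.7% to 61.4%). Transcripts of all genes were at 57.2%, 48.9%, 58.9% and 51.0%. In cells with at least 5 Slc4a1 transcripts, Plek2 was at 64.2%, 70.9%, 69.97% and 63.1%. It exceeded 84.6% of 259, 95.7% of 163, 91.3% of 69 and 87.4% of 182 genes with at least 1000 such transcripts, genes of other cell types included. Plek2 itself had 303 such transcripts in the untreated spleen (64.5% to 75.1%), below that minimum. The listed erythroid genes that passed had medians of 60.5%, 62.2%, 64.0% and 58.4%. Slc4a1 itself was at 60.7%, 64.3%, 61.8% and 58.1% in these cells, and Epor was higher than Plek2 at 74.8%, 76.2%, 76.9% and 73.6%.

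The remaining transcripts lay near the nucleus. Outside it, Plek2 lay at a median of 0.563 to 0.740 µm from the nuclear edge, and 83.1% to 94.99% of it lay within 2 µm. This distance was not taken for other genes, so it does not set Plek2 apart from them. In the fetal liver the nuclear share was 48.6% in cells without Slc4a1 and 65.2% in those with 10 or more, where the nucleus took 38.8% and 50.6% of the cell area. In the PHZ spleen it was 48.3% and 64.2%, with the nucleus at 36.9% and 40.3% of the area. In P8 marrow it was 38.3% and 72.0%, with the nucleus at 12.2% and 42.0% of the area. The untreated spleen had 69.8% and 73.0%, with the nucleus at 55.0% and 49.6%. Transcripts of all genes went from 49.4% to 58.7% in fetal liver, 47.9% to 56.9% in PHZ spleen and 30.4% to 62.1% in P8 marrow between the same classes, and were at 59.8% and 59.3% in untreated spleen. In fetal liver and PHZ spleen cells without Slc4a1, Plek2 was thus within 1 percentage point of all genes. The nuclear outline is a projection of a 5 µm slice, so transcripts above or below the nucleus count as over it.

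**Figure D4:**
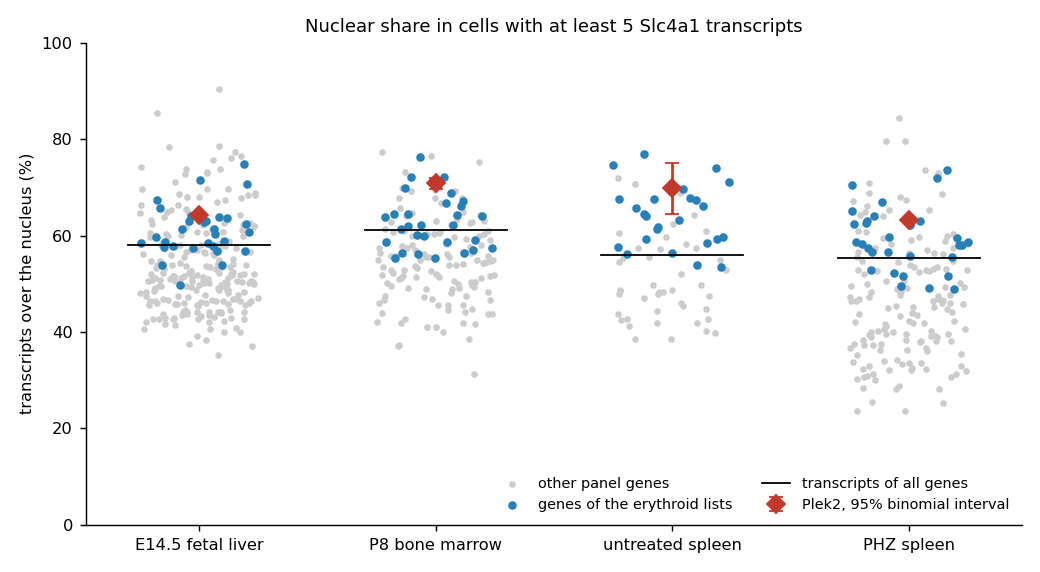
Percent of transcripts over the nucleus in cells with at least 5 Slc4a1 transcripts, for genes with at least 1000 such transcripts and for Plek2 in each section; the black line is the share over transcripts of all genes. Plek2 lies above the line in each section, from 63.1% in PHZ spleen to 70.9% in P8 marrow.

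Plek2 also varied with the size of the nucleus among cells with at least 5 Slc4a1 transcripts. Erythroblast nuclei shrink as the cells mature. From the first (smallest nuclei) to the fourth quartile of nuclear area, Plek2 was 4247, 5286, 6195 and 4930 CPM in fetal liver and 1419, 1811, 2294 and 1733 CPM in P8 marrow. In PHZ spleen it was 8406, 9461, 10702 and 10038 CPM, and in untreated spleen 486, 691, 998 and 1020 CPM. In the 3 sections with more than 1000 Plek2 transcripts the highest CPM thus fell in the third quartile, whereas Kit was highest in the fourth (3715 CPM in fetal liver, 2036 CPM in PHZ spleen) and Slc4a1 in the first (87293 and 81942 CPM). Per cell, Plek2 was highest in the fourth quartile in all 4 sections, at 1.37 transcripts in fetal liver, 0.355 in P8 marrow, 0.278 in untreated spleen and 2.36 in PHZ spleen, against 1.23, 0.334, 0.186 and 1.80 in the third.

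In space, Plek2 filled the fetal liver and was patchy elsewhere. Of squares of 50 µm with at least 5 cells, 98.6% of 2735 in fetal liver, 88.4% of 2690 in PHZ spleen, 43.2% of 2061 in P8 marrow and 28.6% of 1797 in untreated spleen held Plek2. A square held a median of 37 transcripts in fetal liver and 18 in PHZ spleen, whose richest square had 151. The richest 10% of squares held 18.4% of all Plek2 in fetal liver, 32.3% in PHZ spleen, 53.3% in P8 marrow and 60.0% in untreated spleen. These squares were picked by Plek2 itself, and they held 13.4%, 23.9%, 39.6% and 47.8% of the cells with at least 5 Slc4a1 transcripts in the same order. The median square of P8 marrow and of untreated spleen held 0 Plek2 transcripts, so the part of sparse counts in these shares was not tested.

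Plek2 was higher in squares that held cells with at least 5 Slc4a1 transcripts. In PHZ spleen, squares without such a cell held 266 CPM of Plek2 and 0.872% of its transcripts, against 7556 CPM in the others. In P8 marrow, where cartilage and muscle lay around the marrow, the levels were 77.0 and 1451 CPM. In untreated spleen, where 48.1% of Plek2 lay in squares without such a cell, they were 52.8 and 158 CPM, and in fetal liver 333 and 4712 CPM. By quartile of the share of such cells, PHZ spleen squares held 360, 4322, 8217 and 9573 CPM, and fetal liver squares 3656, 4681, 5016 and 5097 CPM. Within Slc4a1-rich cells the level moved less over these quartiles, from 7009 CPM in the first (46 cells) and 9336 in the second to 10643 CPM in the fourth in PHZ spleen, and between 5697 and 5878 CPM in fetal liver.

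**Figure D5:**
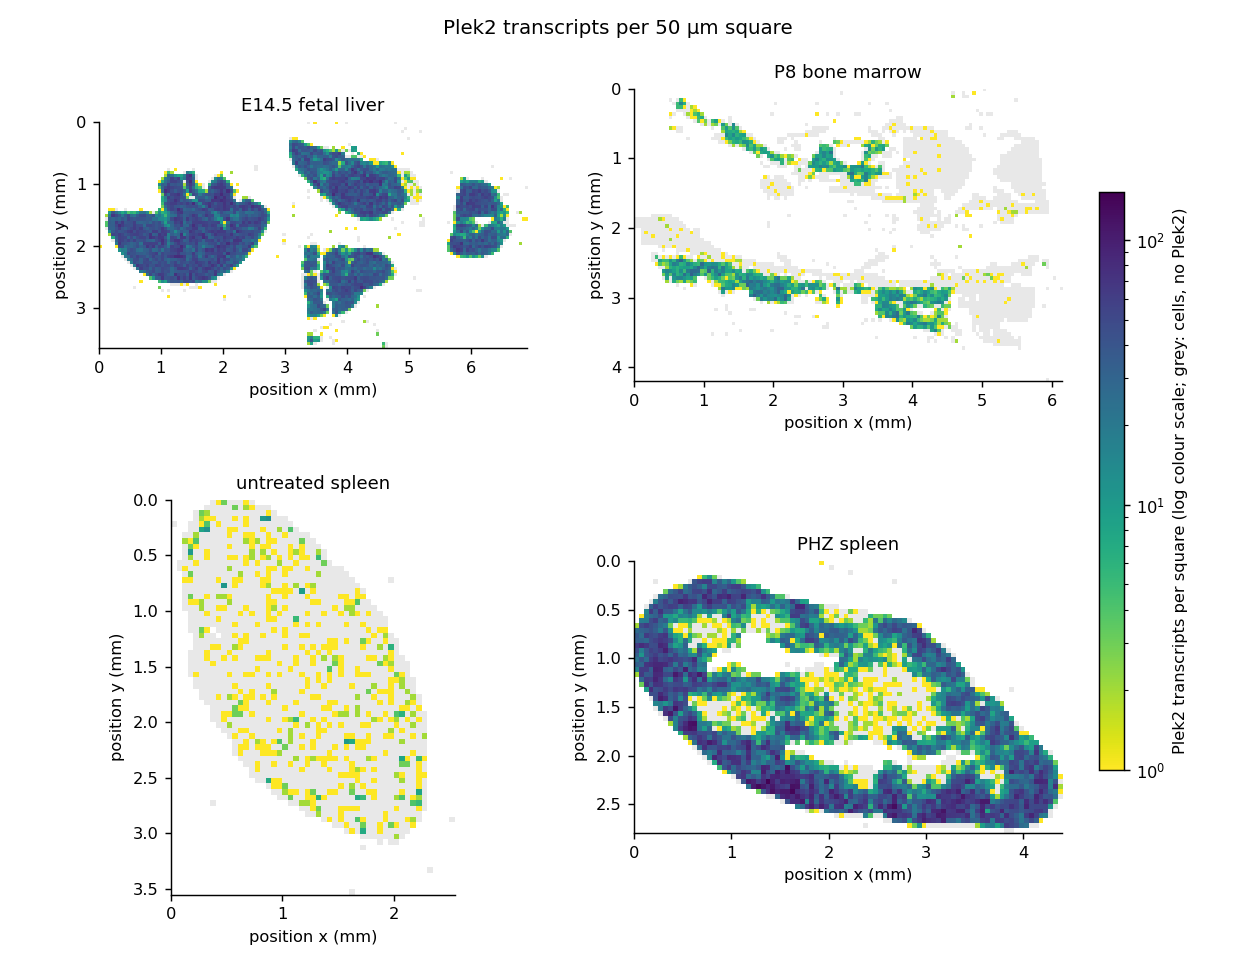
Plek2 transcripts per 50 µm square across the 4 sections, on a shared log colour scale; axes are position in mm, and grey squares hold cells and no Plek2. The fetal liver is filled, the PHZ spleen shows a rich outer band (up to 151 transcripts per square) around poor inner areas, the P8 section holds Plek2 along the marrow, and the untreated spleen shows scattered squares of at most 13.

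Macrophages form the centre of erythroblastic islands, and C1q-positive cells were taken as cells with at least 3 transcripts of C1qa, C1qb and C1qc. There were 14983 in fetal liver, 5791 in P8 marrow, 38973 in untreated spleen and 33235 in PHZ spleen, so in the spleens they made up a large part of all cells and not every one need be a macrophage at the centre of an island. Slc4a1-positive cells (at least 5 transcripts, C1q-positive cells left out) within 10 µm of one held 11079 CPM of Plek2 in PHZ spleen, against 9999 CPM at 10-20 µm and 9019 CPM at 20-40 µm, and the 142 cells farther away held 9303 CPM. In P8 marrow the levels over the 4 distances were 2095, 1676, 1550 and 1864 CPM, the last over 243 cells. In fetal liver they were 5537, 5226, 5245 and 4539 CPM. In CPM the level was highest at the nearest distance in each of the 3 sections. Per cell this held in PHZ spleen, at 1.61, 1.45, 1.13 and 0.852 transcripts from the nearest to the farthest distance. In fetal liver it was 0.965, 1.00, 1.02 and 0.853 per cell, so the nearest distance was not the highest. In P8 marrow it was 0.272, 0.231, 0.228 and 0.280. The last of these came from 68 transcripts (0.217 to 0.355), an interval that held the nearest value. The nearest value lay above those at 10-20 and 20-40 µm there. In untreated spleen 349 such cells lay within 10 µm and 20, 4 and 2 at the farther distances. Slc4a1 content was alike over the first 3 distances in PHZ spleen, at 10.7, 11.01 and 10.8 transcripts per cell. Kit was not alike, at 0.171, 0.224 and 0.179 per cell. It was also lower at 0-10 than at 10-20 µm in fetal liver (0.336 against 0.487) and P8 marrow (0.164 against 0.231). The distances were therefore not matched for Kit.

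Cells without Slc4a1 held different levels of Plek2 by the number of Slc4a1-rich neighbours. In PHZ spleen these held 0.0325 Plek2 transcripts with no Slc4a1-rich cell within 15 µm, 0.159 with 1-2 and 0.235 with 3 or more. Klf1 moved with it, from 0.118 to 0.656 per cell. Other marked cells of this spleen also carried Plek2 and Slc4a1 together: C1q-positive cells with at least 10 C1q transcripts had Plek2 in 23.0% and neutrophil lineage cells in 28.8%, at 3.27 and 3.17 Slc4a1 transcripts per cell. In untreated spleen the Plek2 values by neighbours were 0.00466, 0.00510 and 0.0182, the last from 4 transcripts. In P8 marrow they were 0.00804, 0.0122 and 0.0266, and in fetal liver 0.0594, 0.180 and 0.157, where the highest value was at 1-2 neighbours. Misplaced transcripts and early erythroid cells next to mature ones cannot be told apart here.

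The genes most like Plek2 were sought in 2 ways among 194 genes with at least 1000 transcripts in each section (Plek2 itself had 835 in the untreated spleen). Over the 16 combinations of section and Slc4a1 class, each section centred on its mean, Pearson's r of log2(CPM + 1) had among its 5 highest values Tfrc at 0.997, Ube2c at 0.985, Tspan8 at 0.984 and Diaph3 at 0.979. Over 474 to 771 squares of 100 µm per section, the mean r of log2(CPM + 10) had among its 5 highest values Hemgn at 0.715, Rhd at 0.705, Gata1 at 0.676 and Fech at 0.675. Hemgn, which encodes a nuclear protein of blood cell precursors, had r of 0.860 in fetal liver, 0.770 in P8 marrow, 0.322 in untreated spleen and 0.910 in PHZ spleen over squares. Kit was at -0.30 over the 16 combinations and 0.19 over squares. The classes were set by Slc4a1, and squares share library, depth and tissue make-up, so these are descriptions of patterns shared by many erythroid genes.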

How the data were processed

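Xenium in situ hybridisation images single transcripts in tissue sections. The authors deposited, per section, raw counts per gene and cell and a table of transcripts with a quality score, made with Xenium software 1.7.1.0 per the files. The panel had 379 predesigned genes and 98 chosen for the study. Genome build and probe sequences are not given in the sources used here. Counts rebuilt here from deposited transcripts of score 20 or more equalled the count matrix in every entry. Samples were grouped by the labels, and each group was 1 section, so no test was run. CPM are counts per 1000000 gene transcripts. Ratios have exact intervals from the Poisson counts, and ratios of shares log-normal intervals. Cells were classed by raw Slc4a1 count (0, 1-4, 5-9, 10 or more). Plek2, its classes and the gene lists were chosen with earlier results of these data known. The named genes were Plek2, Slc4a1, Kit, Klf1, the 30 listed genes, and the 5 most like Plek2 by each measure. The other genes ranked beside Plek2 between the spleens were named after their values were seen. Some listed genes and 1 alternative are not reported here. The limits for finer Slc4a1 classes and the ratio after subtraction of background were chosen after seeing the data. Thinning drew 50 transcripts per cell with a fixed seed and left out shallower cells. The scripts were tested on simulated data and used Python 3.11.15, numpy 2.4.6, scipy 1.17.1, pandas 2.3.3, pyarrow 21.0.0 and matplotlib 3.10.9. Depth was a median of 84 to 167 transcripts per cell, which sets the precision of each share.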

Additional observations from a re-analysis of the deposited data

How the results depend on the processing

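With 1 section per condition no replicate could be left out. No paired analysis was possible because each group holds 1 section. The PHZ to untreated ratio of 75.4 was 95.4 per cell and 180 after the level of cells without Slc4a1 was subtracted, a choice made after seeing the data; without Hbb-bt, in cells with at least 20 transcripts, over the nucleus and thinned it stayed between 75.5 and 78.9. The ratio of Plek2 per cell between the Slc4a1 classes 10 or more and 0 was 9.69 in fetal liver, 36.0 in P8 marrow, 59.3 in untreated spleen and 39.1 in PHZ spleen. In CPM it was 6.91, 23.5, 24.4 and 18.3. With both Plek2 and the Slc4a1 classes counted over the nucleus alone it moved to 11.6 in fetal liver, 59.7 in P8 marrow and 81.5 in untreated spleen (37.4 in PHZ spleen), and without C1q-positive cells to 47.3 in untreated and 33.7 in PHZ spleen. The Kit ratios of 0.892, 1.03, 1.22 and 1.16 (fetal liver, P8 marrow, untreated and PHZ spleen) became 0.620, 0.775, 0.832 and 0.707 thinned to 50 transcripts. They became 0.838, 0.892, 1.75 and 1.24 at 2 or more Kit transcripts, and 0.948, 0.861, 0.975 and 0.995 in cells with at least 5 Slc4a1 transcripts. Thinned and in the Slc4a1-positive cells, the P8 marrow, the untreated spleen and the PHZ spleen thus turned from above 1 to below 1, and the P8 marrow also at 2 or more Kit transcripts. The cause was not tested. The Klf1 ratios of 2.46, 4.71, 12.7 and 5.70 became 1.40, 2.47, 9.25 and 2.44 thinned, 2.12, 3.87, 25.7 and 3.97 at 2 or more Klf1 transcripts, and 2.00, 1.96, 4.73 and 1.74 in cells with at least 5 Slc4a1 transcripts. The nuclear share moved to 65.1%, 71.3% and 62.4% in fetal liver, P8 marrow and PHZ spleen at a quality score of 30, and to 64.2%, 70.9% and 63.1% in cells with at least 5 Slc4a1 transcripts. The ratio of Plek2 CPM between the highest and lowest quartiles of squares by share of cells with at least 5 Slc4a1 transcripts was 1.39 in fetal liver, 25.2 in P8 marrow, 3.73 in untreated spleen and 26.6 in PHZ spleen, and the last became 18.9 with squares of 100 µm and 42.8 per cell. In P8 marrow and untreated spleen the lowest quartile was among several made of squares without Slc4a1-positive cells, so its choice among them was arbitrary. Depth limits the untreated spleen, where 237 Plek2 transcripts lay in Slc4a1-rich cells.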
